A study of Mus musculus with 19 samples.

Results

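The proteasome subunit genes were followed in cultured mouse islets of 2 strains at 2 glucose concentrations. Members were chosen by name: probes whose array gene symbol begins with Psma, Psmb, Psmc, Psmd, Psme or Psmf and a digit, leaving out the immunoproteasome subunits Psmb8, Psmb9 and Psmb10. The rule found 62 of the 41174 probes on the array, for 39 of its 29742 gene symbols. One symbol, Psmc3ip, with 2 probes, is caught by its spelling alone, since it encodes a meiotic recombination factor, so 60 probes of 38 genes belong to the proteasome and its regulators. Of the 62 probes, 58 were well above background in the islets of at least 4 mice and were tested, out of 29326 tested probes in all. All 39 symbols kept at least 1 tested probe. The 4 untested probes were the second or further probes of Psmd14, Psme4, Psmd8 and Psmd9. Of the tested members, 57 were well above background in all 19 mice, and no member spot was saturated or marked as an outlier.

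The proteasome is the main protease of the cytosol and nucleus for proteins tagged with ubiquitin. Its 20S core is a barrel of alpha rings, which gate the entry, and beta rings, which carry the cutting sites. The 19S cap holds ATPases (Psmc) that unfold the substrate and non-ATPase subunits (Psmd) that bind and remove ubiquitin. The core can instead take the activators Psme1 to Psme4, and Psmf1 encodes a protein first described as its inhibitor. Beta cells make insulin in large amounts, and proinsulin that misfolds in the endoplasmic reticulum is pulled back into the cytosol and degraded by this machine.

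Islets came from C57BL/6 mice (B6, given as C57BL6/J for the series) and from C57BLKS/J mice (BLKS), a strain related to B6 that carries a share of DBA genome. Islets of 12-week-old, non-diabetic mice were kept for 48 h in 11 mM glucose and then for 24 h in either 5 mM (low) or 20 mM (high) glucose, each mouse apart. The arrays held 5 B6 mice in low glucose, 5 B6 mice in high glucose, 5 BLKS mice in low glucose and 4 BLKS mice in high glucose. Low and high glucose were thus compared between mice and not within a mouse. RNA of whole islets was labelled in both dyes and hybridised to 20 Agilent arrays of 2 colours, so that each array held the RNA of 2 mice. The mouse B6 high 5 was read only on arrays scanned later, which also held B6 low 1. Values below are normalized log2 signals per mouse, and a level of 1 probe cannot be set against that of another. A probe is called where its adjusted p lies under 0.05.

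A pair of low-glucose libraries went against their strain labels. A scale was made from 106 probes that differed between strains in the high-glucose mice, whose strain means set 0 (B6) and 1 (BLKS). On this scale, the library labelled B6 low 4 lay at 0.99 and the library labelled BLKS low 5 at -0.01. The other low-glucose libraries lay between -0.04 and 0.05 for B6 and between 0.93 and 1 for BLKS. Strain could therefore be in doubt for these 2 libraries while their glucose label is shared, and counts and the leading probes are also given without them. Levels of beta cell markers were high on every array: all 8 probes of that list were well above background in all mice, as were 8 of 12 alpha cell probes and 2 of 3 delta cell probes. In whole islets, fewer cells of a type and less RNA per cell cannot be told apart.

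The bases before the transcription start of 5 members named in the results below are shown: Psmb5 and Psmb6 differed between the strains, Psma4, Psmd14 and Psmb5 rose in high glucose, and Psme1 fell. The sequences come from a reference genome, and B6 and BLKS sequences were not compared. Each run holds the 250 bases before the RefSeq start (GRCm38.p6), read 5′ to 3′ on the strand of the gene. Capitals mark matches on either strand to TGACNNNGC, the core of the antioxidant response element that Nfe2l1 and Nfe2l2 bind, to CCAAT, the NF-Y box, or to CACGTG, the E box.
Psmb5 promoter, chr14:54617996-54618245, minus strand: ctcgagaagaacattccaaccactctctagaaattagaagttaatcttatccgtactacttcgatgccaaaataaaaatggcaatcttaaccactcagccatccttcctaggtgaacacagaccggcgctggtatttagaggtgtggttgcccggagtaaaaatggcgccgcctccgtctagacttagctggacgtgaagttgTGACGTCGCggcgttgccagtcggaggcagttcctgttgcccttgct
Psmb6 promoter, chr11:70525107-70525356, plus strand: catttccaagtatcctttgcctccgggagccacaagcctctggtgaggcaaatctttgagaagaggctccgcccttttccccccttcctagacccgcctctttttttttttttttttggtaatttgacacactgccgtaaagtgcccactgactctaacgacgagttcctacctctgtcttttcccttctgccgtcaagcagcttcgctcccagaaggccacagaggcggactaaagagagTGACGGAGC
Psma4 promoter, chr9:54950609-54950858, plus strand: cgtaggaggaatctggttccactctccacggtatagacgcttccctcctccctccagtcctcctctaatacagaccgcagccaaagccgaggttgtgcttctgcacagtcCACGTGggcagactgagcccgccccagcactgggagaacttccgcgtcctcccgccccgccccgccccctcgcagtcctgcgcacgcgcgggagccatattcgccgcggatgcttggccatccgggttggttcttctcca
Psmd14 promoter, chr2:61711444-61711693, plus strand: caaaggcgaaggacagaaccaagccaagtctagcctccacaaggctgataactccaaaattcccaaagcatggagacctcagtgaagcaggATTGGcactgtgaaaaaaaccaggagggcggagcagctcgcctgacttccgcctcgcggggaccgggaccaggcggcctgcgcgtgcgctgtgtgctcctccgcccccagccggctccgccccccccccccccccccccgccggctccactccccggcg
Psme1 promoter, chr14:55578244-55578493, plus strand: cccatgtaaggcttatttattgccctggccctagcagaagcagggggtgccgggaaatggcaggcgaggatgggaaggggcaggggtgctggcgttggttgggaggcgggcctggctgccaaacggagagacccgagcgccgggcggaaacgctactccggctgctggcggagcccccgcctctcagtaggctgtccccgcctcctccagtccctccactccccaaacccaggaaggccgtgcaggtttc
Psmb5 and Psmb6, the catalytic genes that differed between strains in opposite directions, each held 1 match to TGACNNNGC shortly before the start, Psma4 held 1 E box, Psmd14 held 1 CCAAT box on the other strand, and Psme1 held none of the motifs. In windows of 300 bases (250 before and 50 after the start), 34 promoters were found for 32 of the 38 genes. TGACNNNGC was in 6 of these 34 promoters (17.6%), against 12.4% of the 32851 promoters of the RefSeq table. CCAAT was in 12 (35.3%, against 37.4%) and CACGTG in 3 (8.82%, against 7.15%). Among the 20S and 19S genes, 3 of 13 promoters of genes that rose in high glucose (below) held TGACNNNGC, and 2 of 16 of the others. Psmd7, Psmc3, Psmb2 and Psmd3 also rose but had no promoter to search. The 16 include 2 promoters each of Psma6 and Psmc2, and those of the cap assembly factors Psmd5, Psmd9 and Psmd10. CCAAT stood in 2 of those 13 promoters and in 9 of the 16 others. These matches are a description of the letters and no site was tested.

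The first question was how the proteasome genes responded to glucose. Over both strains, 23 of the 58 member probes were higher in high glucose (39.7%) and 6 were lower (10.3%), where 10.9% of all tested probes were called higher and 11.4% lower. Rises and falls were spread unevenly over the parts of the machine. Of the 46 probes for the 20S core and the 19S cap, 22 rose, for 17 of 33 genes, and 0 fell in limma, nor did any fall at an unadjusted p under 0.05. Parts were assigned by gene name, so the cap counts take in the cap assembly factors Psmd5, Psmd9 and Psmd10, which were not called. Activators and the inhibitor made up 5 of the 6 probes that fell, all of Psme1, Psme2b or Psmf1, while 1 probe of the activator Psme4 rose. The changes were small: the risen probes were 1.08-fold to 1.21-fold higher and the fallen ones 1.08-fold to 1.24-fold lower. The median change of the 20S and 19S probes was 0.12 on the log2 scale, beside -0.0039 for all tested probes. Without the libraries labelled B6 low 4 and BLKS low 5, 22 members rose and 6 fell, beside 10.7% and 11.1% of all probes, and 21 of the rises and all 6 falls were shared with the full set of mice. Psmb6 was gained, and Psmd8 and Psme4 were no longer called.

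**Figure D1:**
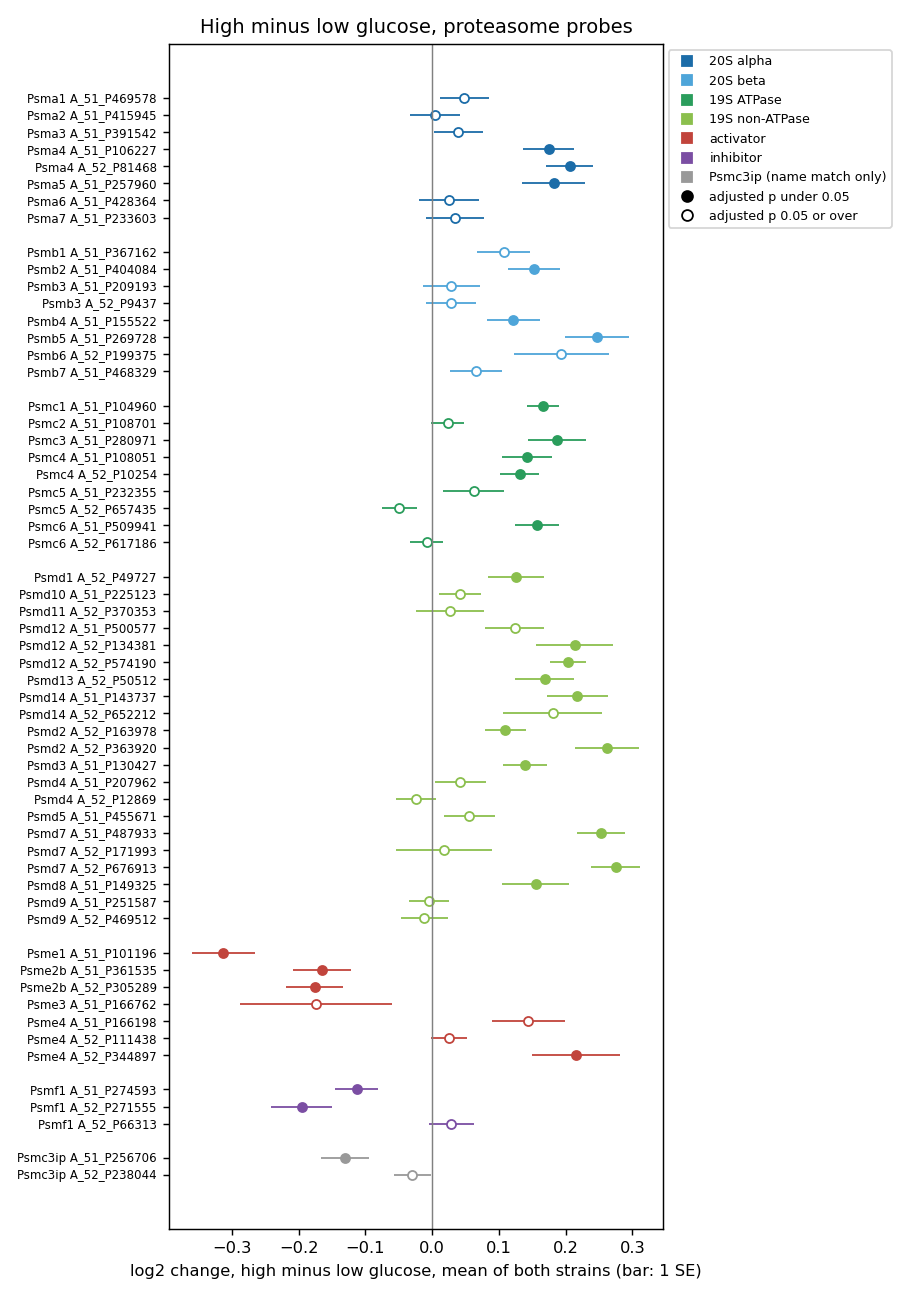
Log2 change from low to high glucose of each of the 58 tested member probes, as the mean of both strains with 1 standard error, grouped by role; filled points have an adjusted p under 0.05. The 20S and 19S probes lie mostly right of 0, with 22 filled points, while Psme1, both Psme2b probes and 2 of 3 Psmf1 probes lie left of 0.

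Among the alpha ring genes, 3 of 8 probes rose, for Psma4 and Psma5. Psma4 encodes a subunit of the ring that gates the core. Its probe A_52_P81468 read 8.23, 8.08, 8.15, 8.11 and 7.98 in the B6 mice in low glucose and 8.30, 8.32, 8.39, 8.34 and 8.33 in those in high glucose. In BLKS mice it read 8.09, 8.11, 8.14, 8.17 and 7.93 in low glucose and 8.28, 8.34, 8.19 and 8.29 in high glucose. High-glucose mice lay above all low-glucose mice in both strains, and the change over both strains was 0.21 (standard error 0.035, limma adjusted p = 0.000286), and 0.19 without the 2 libraries. The other Psma4 probe changed by 0.17 and Psma5 by 0.18. Psma1, Psma2, Psma3, Psma6 and Psma7 were not called, with changes from 0.0037 (Psma2, the alpha ring probe of highest signal) to 0.05.

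Of the beta ring probes, 3 of 8 rose, for Psmb2, Psmb4 and Psmb5. Psmb5 carries the chymotrypsin-like site, the main target of proteasome inhibitor drugs. Psmb5 read 10.22, 10.36, 10.26, 10.47 and 10.18 in B6 low glucose, where 10.47 is the library labelled B6 low 4, and 10.51, 10.53, 10.63, 10.38 and 10.55 in B6 high glucose. In BLKS it read 10.45, 10.55, 10.60, 10.67 and 10.30 in low glucose, where 10.30 is the library labelled BLKS low 5, and 10.81, 10.79, 10.71 and 10.84 in high glucose. The BLKS glucose groups did not overlap, and the B6 groups overlapped through 1 library each. The change was 0.25 (standard error 0.048, adjusted p = 0.000979), and 0.24 without the 2 libraries. Psmb2 changed by 0.15 and Psmb4, the beta ring probe of highest signal, by 0.12. The other catalytic genes were not called: Psmb6, the caspase-like site, changed by 0.19 (adjusted p = 0.0596, and 0.00441 without the 2 libraries), and Psmb7, the trypsin-like site, by 0.07.

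Among the ATPases of the cap, 5 of 9 probes rose, for Psmc1, Psmc3, Psmc4 (both probes) and Psmc6 (1 of 2 probes). Psmc1, one of the ring of unfolding motors, read 10.82, 10.76, 10.82, 10.89 and 10.81 in B6 low glucose and 10.93, 10.95, 11.00, 10.97 and 10.90 in B6 high glucose. In BLKS it read 10.84, 10.91, 10.97, 10.92 and 10.83 in low glucose and 11.05, 11.14, 11.09 and 11.10 in high glucose. Low and high glucose did not overlap in either strain, and the change was 0.17 (standard error 0.024, adjusted p = 6.02e-05), and 0.17 also without the 2 libraries. The uncalled Psmc6 probe changed by -0.0082. Psmc3 changed by 0.19, and Psmc2 and both Psmc5 probes, with changes from -0.05 to 0.06, were not called.

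The non-ATPase (Psmd) genes of the cap, with the assembly factors counted in, held the largest rises of the members. Of their probes, 11 of 21 were called, for 8 of 13 genes. Psmd7, a lid subunit that pairs with the deubiquitinase Psmd14, had the largest change of any member that rose. Its probe A_52_P676913 read 8.30, 8.21, 8.21, 8.30 and 8.19 in B6 low glucose and 8.47, 8.36, 8.67, 8.52 and 8.52 in B6 high glucose. In BLKS it read 8.14, 8.24, 8.35, 8.33 and 8.22 in low glucose and 8.49, 8.56, 8.54 and 8.59 in high glucose. No low-glucose mouse reached a high-glucose mouse of its strain, and the change over both strains was 0.27 (standard error 0.037, adjusted p = 2.54e-05). Without the 2 libraries it was 0.28. In B6 alone it was 0.26 (exact permutation p = 0.00794, 2-sided). A second probe to the same transcript, A_51_P487933, changed by 0.25 (adjusted p = 4.39e-05), also with no overlap in either strain. The third, A_52_P171993, designed to a separate cDNA record, changed by 0.02 (adjusted p = 0.892) and was not called.

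Psmd14 itself, which cleaves ubiquitin chains from the substrate, changed by 0.22 at probe A_51_P143737 (adjusted p = 0.00181), and by 0.20 without the 2 libraries. Its other tested probe, A_52_P652212, changed by 0.18 and was not called (adjusted p = 0.0914). The called probe read 10.19, 9.91, 10.07, 10.03 and 9.79 in B6 low glucose against 10.24, 10.23, 10.15, 10.17 and 10.25 in B6 high glucose. BLKS mice ranged from 9.82 to 10.06 in low glucose and read 10.22, 10.30, 10.18 and 10.12 in high glucose. The BLKS groups stood apart, while 1 B6 mouse in low glucose lay among those in high glucose. Psmd2 encodes a scaffold of the base that docks ubiquitin shuttles. Its probe A_52_P363920 read 9.29, 9.13, 9.36, 9.33 and 9.16 in B6 low glucose and 9.34, 9.45, 9.52, 9.64 and 9.46 in B6 high glucose. BLKS mice ranged from 9.24 to 9.51 in low glucose and read 9.54, 9.66, 9.76 and 9.76 in high glucose. The BLKS groups did not overlap and the B6 groups overlapped by 1 mouse on either side. Psmd2 changed by 0.26 at probe A_52_P363920 (adjusted p = 0.000521, and also by 0.26 without the 2 libraries) and by 0.11 at probe A_52_P163978 (adjusted p = 0.0164). Psmd12, a lid subunit, rose at 2 of its 3 probes, by 0.20 and 0.21, and changed by 0.12 at the third (adjusted p = 0.0515). Psmd1, Psmd3, Psmd8 and Psmd13 changed by 0.13, 0.14, 0.16 and 0.17. Psmd4, the ubiquitin receptor of the cap, was not called, with changes of 0.04 and -0.02 at its probes, nor were Psmd11 and the cap assembly factors Psmd5, Psmd9 and Psmd10.

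**Figure D2:**
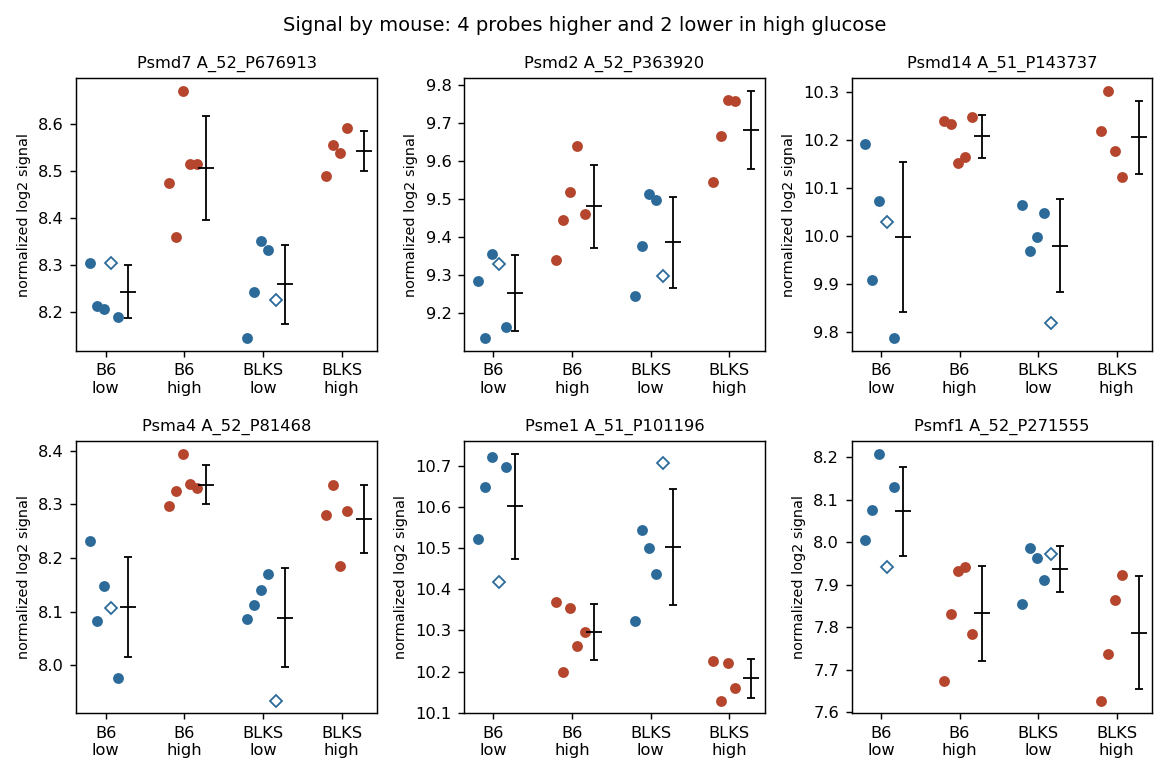
Normalized log2 signal in each mouse for 4 member probes higher in high glucose (Psmd7, Psmd2, Psmd14, Psma4) and 2 lower (Psme1, Psmf1), by strain and glucose; bars give the mean and SD, and open diamonds are the libraries labelled B6 low 4 and BLKS low 5. Psme1 lies lower in high glucose in both strains with no overlap, and the Psmd7 and Psma4 probes lie higher with no overlap.

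Of the 7 activator probes, 3 fell, those of Psme1 and Psme2b, and 1 rose, of Psme4. Psme1 and Psme2 encode the ring-shaped cap that interferon induces and that is linked with making peptides for antigen presentation. Psme1 read 10.52, 10.65, 10.72, 10.42 and 10.70 in B6 low glucose and 10.37, 10.20, 10.36, 10.26 and 10.30 in B6 high glucose. The BLKS mice read 10.32, 10.54, 10.50, 10.44 and 10.71 in low glucose and 10.23, 10.13, 10.22 and 10.16 in high glucose. All high-glucose mice lay below all low-glucose mice of their strain, and the change was -0.31 (standard error 0.047, adjusted p = 8.83e-05), the largest of all members in either direction, and also -0.31 without the 2 libraries. The probes named Psme2b on the array, whose records cover Psme2 and its near-identical copy so that the 2 cannot be separated, changed by -0.17 and -0.18 (adjusted p = 0.00986 and 0.00567), and both by -0.18 without the 2 libraries. With the array pairs described below as a random block, neither was called (adjusted p = 0.114 and 0.0762). Of 4 tested probes of the left-out immunoproteasome subunits, which interferon also induces, 2 fell and 0 rose, beside 11.4% and 10.9% of all probes. Psmb9 changed by -0.35 (adjusted p = 0.000134) and Psmb8 by -0.17 at a called probe, and Psmb10 was not called. Without the 2 libraries 3 fell, beside 11.1% of all probes.

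Psme3, which encodes a nuclear activator, varied widely between mice, from 10.82 to 11.31 in B6 high glucose and from 11.10 to 11.91 in BLKS low glucose, and its change of -0.17 was not called (adjusted p = 0.302). Psme4, another nuclear activator, rose by 0.22 at 1 of 3 probes (A_52_P344897, adjusted p = 0.0247, 0.063 without the 2 libraries and 0.12 with that block), and changed by 0.14 and 0.03 at the others. Psmf1 fell at 2 of 3 probes, with changes of -0.20 and -0.11 (adjusted p = 0.00397 and 0.0163), the second of which was lost with the block (adjusted p = 0.0657), and the third changed by 0.03. At probe A_52_P271555, Psmf1 read 8.01, 8.08, 8.21, 7.94 and 8.13 in B6 low glucose and 7.67, 7.83, 7.93, 7.94 and 7.78 in B6 high glucose. The BLKS mice read 7.86, 7.99, 7.96, 7.91 and 7.97 in low glucose and 7.63, 7.74, 7.86 and 7.92 in high glucose. The B6 groups met at 7.94 without overlapping, where the low-glucose reading is the library labelled B6 low 4, and the BLKS groups overlapped. The last of the fallen probes was 1 of the 2 probes of Psmc3ip, which is no proteasome gene. Of 15 genes with more than 1 tested probe, 4 were called by every probe and 7 by some only, and 0 were called in opposite directions.

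The responses were also tested within each strain. In B6 islets, 13 members rose (beside 5.43% of all probes) and 2 fell (beside 4.06%). In BLKS islets, 12 rose (beside 6.53%) and 2 fell (beside 5.06%). All of the rises in either strain were in the 20S core and 19S cap, and Psme1 fell in both. Without the 2 libraries the counts were 16 and 4 in B6, beside 6.6% and 5.59% of all probes, and 7 and 3 in BLKS, beside 5.58% and 4.3%. In BLKS, 5 of the 12 rises, those of Psma4, Psmc4, Psmc6, Psmd14 and Psmd8, were then no longer called, and 1 of the 3 falls was a probe of the cap ATPase Psmc5 (A_52_P657435, -0.12, adjusted p = 0.0469, and 0.107 with all mice). Low and high glucose groups did not overlap for 12 of the 58 members in B6, beside 7.45% of all probes, and for 14 in BLKS, beside 13.3%.

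**Figure D3:**
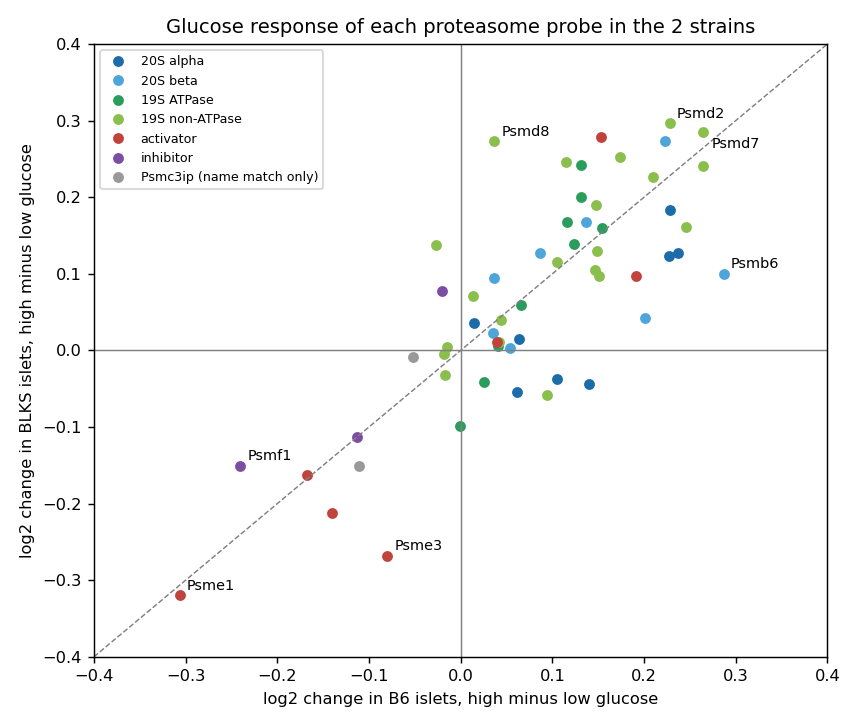
Log2 change from low to high glucose in B6 islets (horizontal axis) against BLKS islets (vertical axis) for the 58 member probes, coloured by role; the dashed line marks equal change. The 20S and 19S probes gather in the upper right and Psme1 in the lower left, and Psmd8 and Psmb6 lie off the line, with a difference between strains that did not pass the test.

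Did the strains respond differently? The difference of glucose responses was called for 0 members in limma, beside 0.0409% of all probes. With all mice, the member with the largest difference was Psmd8, a lid subunit, which changed by 0.27 in BLKS and by 0.04 in B6, a difference of 0.24 (standard error 0.0997, adjusted p = 1), which was 0.19 without the 2 libraries. The largest without them was that of Psme3, at -0.32, against -0.19 with all mice. Psmb6 changed by 0.29 in B6 and 0.10 in BLKS, a difference of -0.19, which became -0.01 without the 2 libraries.

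The second question was whether the strains differed. The strain scale was made from the high-glucose mice and is no separate check of their labels. In high glucose, 4 members were higher in BLKS than in B6 (beside 4.99% of all probes) and 1 was lower (beside 6.12%). These are 6.9% and 1.72% of the 58 members. The 4 were Psmb5, Psmd13, Psmc1 and Psmd2, and the 1 was Psmb6. Strain groups in high glucose did not overlap for 5 of the 58 members, beside 14.4% of all probes.

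The pair of catalytic genes moved in opposite directions. Psmb5 in high glucose lay between 10.71 and 10.84 in BLKS mice and between 10.38 and 10.63 in B6 mice, with no overlap and a difference of 0.27 (standard error 0.07, adjusted p = 0.02). Psmb6 in high glucose read 10.90, 10.84, 11.04, 10.85 and 10.96 in B6 mice and 10.64, 10.38, 10.57 and 10.62 in BLKS mice. The BLKS mice all lay below the B6 mice, and the difference was -0.36 (standard error 0.1, adjusted p = 0.0317), the largest strain difference of any member in high glucose.

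In low glucose Psmb6 read 10.72, 10.80, 10.78, 10.21 and 10.64 in mice labelled B6 and 10.30, 10.33, 10.46, 10.42 and 10.75 in mice labelled BLKS. The library labelled B6 low 4 was the lowest of all and that labelled BLKS low 5 lay among the B6 mice. With all mice the difference was -0.17 (adjusted p = 0.415), and without these 2 libraries it was -0.35 (adjusted p = 0.000469). Psmb5 in low glucose differed by 0.22 with all mice (adjusted p = 0.147) and by 0.31 without the 2 libraries (adjusted p = 0.000766). Without the 2 libraries, the BLKS mice in low glucose lay below the B6 mice for Psmb6 and above them for Psmb5.

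**Figure D4:**
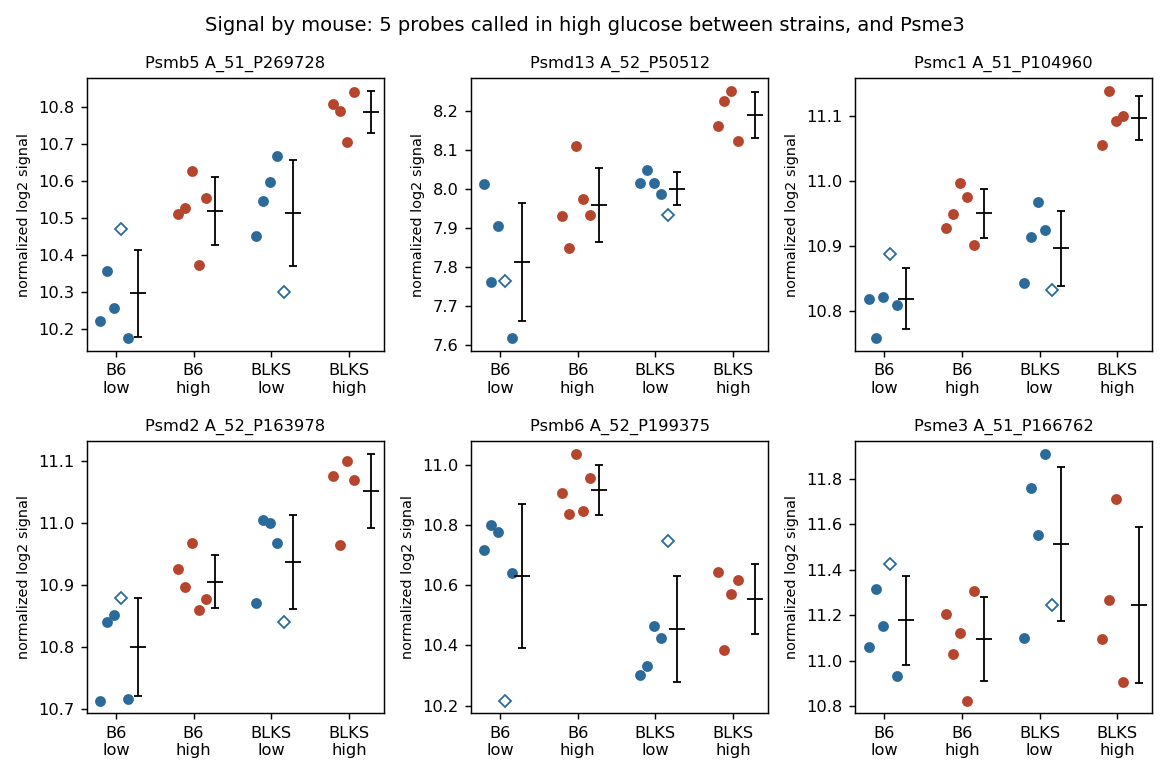
Normalized log2 signal in each mouse for the 5 member probes that differed between strains in high glucose (Psmb5, Psmd13, Psmc1, Psmd2, Psmb6) and for Psme3, by strain and glucose; bars give the mean and SD, and open diamonds are the libraries labelled B6 low 4 and BLKS low 5. For Psmb6 the diamonds sit with the other strain, the first at 10.21 and the second at 10.75.

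Psmd13, a lid subunit, read 7.93, 7.85, 8.11, 7.97 and 7.93 in B6 high glucose and 8.16, 8.23, 8.25 and 8.12 in BLKS high glucose. These groups did not overlap, and the difference was 0.23 (adjusted p = 0.0253). It was 0.19 in low glucose (adjusted p = 0.156, and 0.0665 without the 2 libraries). Psmc1 differed by 0.15 in high glucose with no overlap (adjusted p = 0.0123), and Psmd2 probe A_52_P163978 differed by 0.15 (adjusted p = 0.0451), with 1 BLKS mouse among the B6 mice. The other Psmd2 probe differed by 0.20 (adjusted p = 0.0689).

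In low glucose 0 members were called in limma with all mice, as were 0% of all probes. Without the 2 libraries, 7 were higher in BLKS (12.1%, beside 7.06% of all probes) and 5 lower (8.62%, beside 8.57%). Over both glucose concentrations, 10 members were higher in BLKS (beside 8.09% of all probes) and 4 lower (beside 10.7%), and without the 2 libraries 14 were higher (beside 11.7%) and 7 lower (beside 14.1%), with all of the first 10 and 4 among them. Psme1 was one of those gained, at -0.15 (adjusted p = 0.00421, and 0.135 with all mice). Psmb5, with 0.24, Psmd13, with 0.21, and Psmd2, with 0.17 and 0.14, led the higher ones. Psmb3 at 1 of 2 probes, Psma7, Psmd3, Psmc1 and both Psmc4 probes followed, between 0.09 and 0.14. Psmb6, with -0.27, led the lower ones, followed by Psmf1 at 1 of 3 probes (-0.12), Psmd9 at 1 of 2 probes (-0.10) and Psmc2 (-0.08). Of the genes that rose with glucose, Psmd7, Psmd14, Psmd12 and Psma4 had strain differences between -0.06 and 0.03 and were not called. Psme3 had a strain difference of 0.24 that was not called (adjusted p = 0.165), with mice of both strains interleaved.

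**Figure D5:**
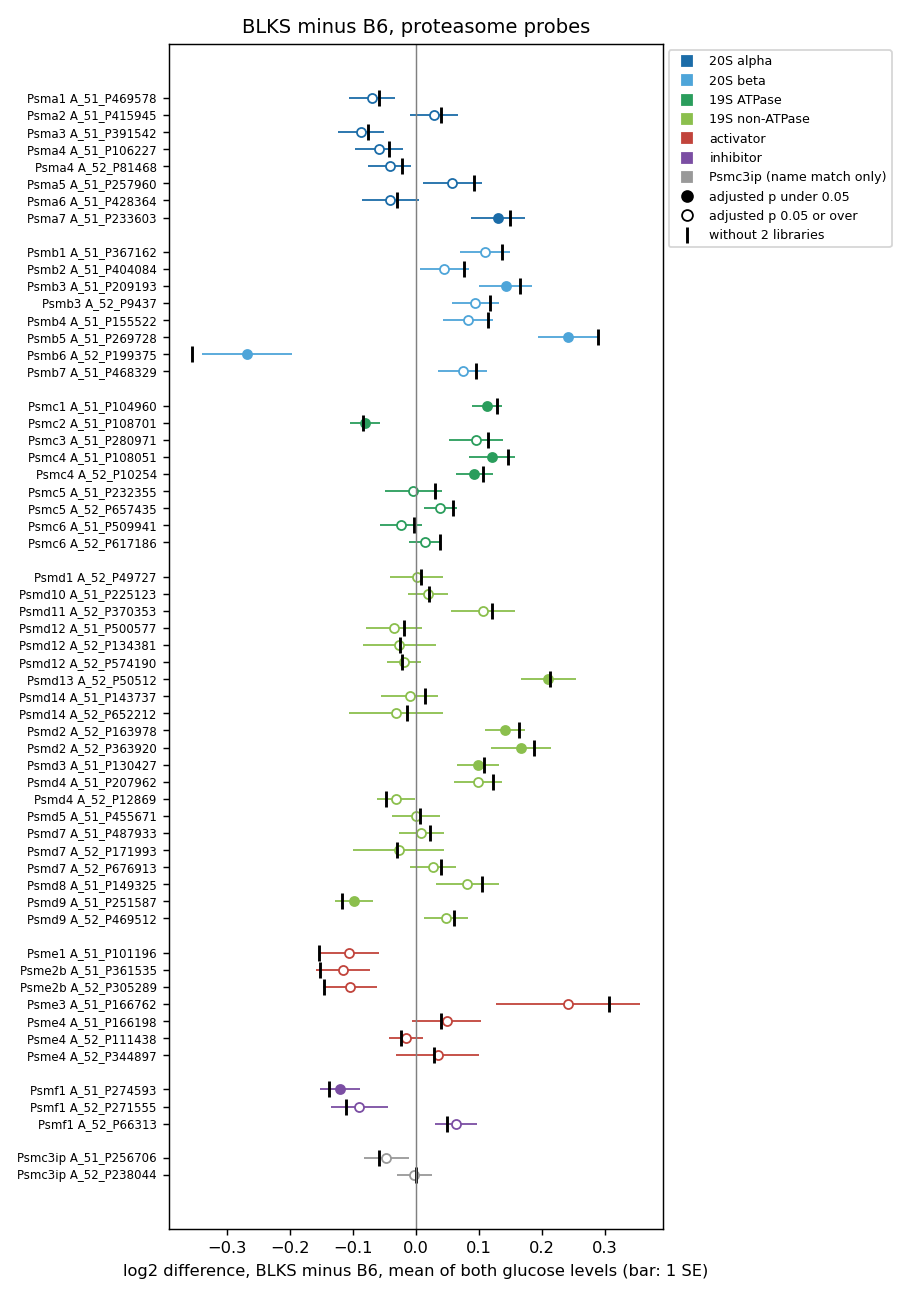
Log2 difference of BLKS minus B6 over both glucose concentrations for the 58 tested member probes, with 1 standard error, grouped by role; filled points have an adjusted p under 0.05, and black ticks give the value without the libraries labelled B6 low 4 and BLKS low 5. Psmb5 lies furthest to the right of the filled points and Psmb6 furthest to the left, and the ticks of both lie further from 0.

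B6 and BLKS mice of the same number were hybridised to the same arrays, and the deviations of such pairs from their group means had a median correlation of 0.482 over 9 pairs. A fit with these pairs as a random block called more strain differences and fewer glucose responses. At high glucose it found 14 members higher in BLKS and 5 lower, beside 12.3% and 12.9% of all probes. At low glucose it found 12 and 3, beside 6.77% and 9.3%, and over both 18 and 10, beside 15.4% and 18.1%. For glucose it found 16 that rose and 2 that fell, beside 7.01% and 6% of all probes. The rises lost were those of Psmd8, Psmb4, Psmd1, Psmd13, Psme4 and 1 probe each of Psmd12 (A_52_P134381) and Psmd2 (A_52_P163978), and the falls lost were those of both Psme2b probes, Psmf1 probe A_51_P274593 and Psmc3ip. A fixed block gave strain counts of 10 and 4 at high glucose (beside 10.3% and 9.68%), 6 and 3 at low glucose (beside 3.58% and 4.46%) and 15 and 7 over both (beside 14.2% and 15%). Psme3 passed the strain test over both concentrations under the random block, at 0.26 (adjusted p = 0.0137), and under the fixed block, at 0.27 (adjusted p = 0.0169). Psme1 likewise passed with -0.11 (adjusted p = 0.0116 and 0.0186). Scaling mattered as well: with unscaled arrays 8 members rose and 5 fell with glucose, beside 4.81% and 13% of all probes, and in the authors' unscaled values there were 5 rises and 3 falls, beside 3.73% and 7.82%. None of the 46 probes of the core and cap fell in either.

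Genes that work with the proteasome were described by lists of their own. Over all tested probes, 10.9% rose and 11.4% fell with glucose (10.7% and 11.1% without the 2 libraries). Of the assembly chaperones, 1 of 8 probes rose with glucose (Psmg3, by 0.19) and 2 fell, Psmg1 (-0.18) and Ecpas (-0.13), the latter a proteasome-binding scaffold protein. Of the ubiquitin genes and activating enzymes, 3 of 13 probes rose (2 without the 2 libraries) and 0 fell, with Uba1, the main enzyme that activates ubiquitin, at 0.31 (adjusted p = 1.27e-05). Of the ubiquitin receptors, shuttles and proteasome deubiquitinases, 7 of 19 probes rose (6 without the 2 libraries) and 0 fell, with the shuttle Ubqln1 at 0.25 and Rad23b at 0.18.

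The list of endoplasmic reticulum-associated degradation, the route that pulls misfolded secretory proteins out to the proteasome, was put in 1 list with Vcp and its partners. Of the 33 probes, 24 rose with glucose and 2 fell, beside 10.9% and 11.4% of all probes, with 24 and 2 also without the 2 libraries. Derl3 changed by 0.75 (adjusted p = 0.00157), Derl1 by 0.21 to 0.64 at its 4 risen probes and Vcp, the ATPase that does the pulling, by 0.22 and 0.21. The fallen probes were 1 of Syvn1 (-0.56) and 1 of Derl2 (-0.23), and the other probe of each of these genes rose. Between strains, 13 of the 33 probes were higher in BLKS (14 without the 2 libraries) and 0 lower, beside 8.09% and 10.7% of all probes (11.7% and 14.1% without). Of the regulators of proteasome genes, 2 of 11 probes rose with glucose (1 without the 2 libraries) and 3 fell, beside the same 10.9% and 11.4% of all probes. Keap1, the partner that holds Nfe2l2 down, rose by 0.13 and Ngly1, which processes Nfe2l1, by 0.11 at 1 of 2 probes (adjusted p = 0.0281, and 0.0762 without the 2 libraries). Nfe2l2 fell with glucose at all 3 probes (-0.18, -0.16 and -0.09), and Nfe2l1, which drives proteasome genes when the proteasome is inhibited, changed by 0.05 and was not called (adjusted p = 0.414).

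Some cell type markers were called in these comparisons, and their part in the results was not tested. Over all tested probes, 10.9% rose and 11.4% fell with glucose (10.7% and 11.1% without the 2 libraries). Between strains, 8.09% of all probes were higher in BLKS and 10.7% lower (11.7% and 14.1% without). With glucose, 2 of 9 acinar, 3 of 8 macrophage and 2 of 5 endothelial probes fell, 1 of 12 alpha cell probes fell, 2 of 5 duct probes rose, and 3 of 8 beta cell probes fell, those being Slc2a2 at both probes and Mafa. Without the 2 libraries, 2 macrophage and 2 beta cell probes fell and 3 duct probes rose, and the acinar, endothelial and alpha cell counts stayed at 2, 2 and 1. The summed log2 level of the acinar list ranged from 11.17 to 11.55 in B6 low glucose, 11.03 to 11.23 in B6 high glucose, 11.39 to 11.69 in BLKS low glucose and 11.13 to 11.45 in BLKS high glucose. That of the macrophage list ranged, in the same order, from 11.67 to 12.07, 11.35 to 11.89, 11.35 to 11.93 and 11.01 to 11.35. Between strains, 5 of 7 fibroblast or stellate cell probes and 4 of 5 endothelial probes were lower in BLKS (4 and 4 without the 2 libraries), as were 2 of 8 macrophage, 2 of 8 beta cell and 1 of 12 alpha cell probes (2, 2 and 2 without). Higher in BLKS were 2 of 9 acinar, 1 of 5 duct and 1 of 8 beta cell probes (5, 3 and 1 without, with 1 macrophage and 1 delta cell probe gained). The summed log2 level of the fibroblast list ranged from 11.13 to 12 in B6 low glucose, 11.75 to 12.81 in B6 high glucose, 10.96 to 11.43 in BLKS low glucose and 10.59 to 11.7 in BLKS high glucose. That of the endothelial list ranged, in the same order, from 9.38 to 9.59, 9.22 to 9.49, 9.17 to 9.4 and 8.92 to 9.12. The beta cell list ran, in that order, from 17.94 to 18.13, 17.91 to 18.21, 17.92 to 18.11 and 17.83 to 18.04. Saturation was examined for member spots only, not for marker spots. The level of the beta cell list therefore cannot be read as equal beta cell content.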

How the data were processed

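The study compared islets of B6 and BLKS mice after culture in low or high glucose on 2-colour Agilent whole mouse genome arrays. The authors extracted signals with Agilent Feature Extraction (9.5.3.1 per the file headers, 8.1 per the submitters' processing notes), without background subtraction and with linear and LOWESS dye normalization. The deposited intensity values (processed signal, each array deposited in duplicate) were taken to log2, spots marked as outliers were left out, and arrays were scaled (Aquantile, limma 3.58.1, R 4.3.3). Spots, arrays and dyes were averaged to 1 value per mouse. The number of arrays limits the precision. The authors' deposited log2 value table matches the unscaled log2 mean signal (correlation at least 0.9999) and was used as an alternative. Its column medians ran from 6.23 to 6.53.

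Probes well above background in at least 4 mice were fitted with 4 group means in limma (lmFit, eBayes), with Benjamini-Hochberg adjustment over all 29326 tested probes. Named probes are up to 8 called in each direction with the largest change per comparison, the probe of highest signal per role, all activator and inhibitor probes, and all probes of a gene that differ in sign or call. Outside the members, up to 2 called genes per list were named; others (Vcp, Rad23b, Nfe2l1, Keap1, Ngly1, Psmb8, Derl2, Ecpas) were chosen after their values were seen. The members, lists and tests were chosen with earlier results of these data known. Per the labels, B6 and BLKS mice of one number shared arrays (9 pairs). The correlation of their deviations ran from 0.021 to 0.695, against a median of -0.053 for all other pairs of mice. The array pair was tried as a block. The fit was tested on simulated data with independent noise for each mouse, so the correlation within array pairs was not covered. Alternatives were another background correction, scaling and filter, single dyes, blocks on array pairs, the methods' linear model, and leaving out mice.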

Additional observations from a re-analysis of the deposited data

Results flagged for a closer look

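Among 45 member probes in 4 groups (180 groups of mice in all), 6 times a single mouse stood far from the others of its group by Dixon's ratio (its gap to the nearest mouse over the range of the group). This is 3.33% of the groups, where chance alone gives about 1 in 20. The mice were all different. Psmb6 in the library labelled B6 low 4 read 10.215, below the next at 10.639 (ratio 0.727), and this is one of the 2 libraries that went against their strain labels. Psme2b probe A_52_P305289 in the other one, labelled BLKS low 5, read 12.265, above the next at 12.118 (ratio 0.714). The remaining values were Psmc3ip probe A_51_P256706 in BLKS high 3 (6.836, ratio 0.83), Psmd12 probe A_52_P134381 in B6 high 1 (7.819, ratio 0.762), Psmd7 probe A_52_P171993 in B6 low 1 (6.543, ratio 0.714) and Psme2b probe A_51_P361535 in B6 high 5 (11.870, ratio 0.795).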

How the results depend on the processing

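The 29 glucose calls over both strains kept their sign under all 13 alternatives that give a value and with each mouse left out, 7 of them were called under every alternative (Psmd7 at 2 probes, Psme1, Psmb5, Psma5, Psmd12 and Psmf1 at 1 probe each) and 25 with each mouse left out (not Psmd8, Psmb4, Psmd1 and Psme4). Of the 5 strain calls in high glucose, 0 were called under all 14 alternatives and 1 (Psmc1) with each mouse left out. Of the 14 strain calls over both concentrations, 2 (Psmb5 and Psmb6) and 7 were, in the same order. All of these strain calls kept their sign. For glucose over both strains, the count of members called was 29. It became 18 with the array pair as a random replicate block, 13 without scaling between arrays and 8 in the authors' value table. For glucose in B6 the count of 15 became 29 in the linear model that the methods describe, fitted to each dye, 3 without scaling and 2 in the authors' table. For glucose in BLKS the count of 14 became 29, 1 and 0 in the same order, and 8 with Cy5 alone. For strain in high glucose the count of 5 became 18, 1 and 0, and 2 with Cy5 alone, 3 without the later-scanned arrays, and 14 and 19 with the array pair as a fixed and a random replicate block. For strain in low glucose the count of 0 became 12 in the methods' model, 4 with Cy3 alone, 9 and 15 with the blocks, and 12 without B6 low 4 and BLKS low 5. For strain over both concentrations the count of 14 became 25 in the methods' model, 3 without scaling, 2 in the authors' table, and 22 and 28 with the blocks. The methods' model counts both dyes of a mouse as values, and the cause of the other shifts was not tested. Except where given above, these counts and those below stand without the share of all probes called. A shift in them cannot be read as particular to the members.

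With each mouse left out in turn, counts ran from 26 to 30 for glucose over both strains, from 7 to 17 for glucose in B6 and from 7 to 17 in BLKS, from 2 to 6 for strain in high glucose, from 0 to 6 in low glucose and from 9 to 20 over both, and stayed at 0 for the difference of responses. The count for B6 fell to 7 without B6 low 5 and to 9 without B6 high 2 or B6 high 3. That for BLKS fell to 7 without BLKS high 4 and to 8 without BLKS low 5 or BLKS high 2. Strain in high glucose fell to 2 without B6 high 1, BLKS high 3 or BLKS high 4 and to 3 without B6 high 2 or B6 high 5. Strain in low glucose rose to 6 without B6 low 4 and to 4 without BLKS low 5. Strain over both fell to 9 without BLKS low 4 or B6 low 5. A glucose response could not be fitted with array pair as a fixed replicate block, because the 9 pairs of B6 and BLKS mice each lie within 1 glucose concentration. B6 high 5 was in none of these pairs and was read only on the later-scanned arrays, which also held B6 low 1. Without those arrays the count for glucose in B6 was 11.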
